A study of Homo sapiens with 30 samples.

Results

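The 10 immediate early and AP-1 genes are described here in human embryonic stem cells given Wnt3a, the BET inhibitor CPI-203 and Activin A. They are FOS, FOSB, FOSL1 and FOSL2 of the FOS family, JUN, JUNB and JUND of the JUN family, ATF3, EGR1 and IER5L. They were chosen by symbol, with earlier results of these data known. All 10 were found among the 27348 genes that both RNA count tables share. All 10 also passed the filter on low counts, which kept 17355 genes for testing.

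Immediate early genes are transcribed within minutes of a signal from existing factors, with no need for new protein. FOS and JUN family proteins pair through leucine zippers to form AP-1, which binds DNA and passes growth factor, MAP kinase and stress signals on to other genes. EGR1 is a zinc finger factor induced through serum response factor (SRF), and ATF3 is a zipper protein induced by many stresses. IER5L is a little studied relative of the immediate early gene IER5. BET proteins read acetylated histones and help RNA polymerase II leave its pause near promoters, and CPI-203 keeps their bromodomains off acetylated lysines.

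The cells were RUES2, an established human embryonic stem cell line, kept in E7 medium with ROCK inhibitor in every group. RNA was sequenced from 16 libraries in 8 groups of 2. At 24 h, E7 had medium alone, E7_CPI had CPI-203 at 1 µM, WNT had Wnt3a at 100 ng/mL, and WNT_CPI had both. At 48 h, E7_ACT had medium and then Activin A at 10 ng/mL on day 2, WNT_ACT had Wnt3a and then Activin A, WNT_E7 had Wnt3a and then medium, and WNT_CPI_ACT had Wnt3a with CPI-203 on day 1 and then Activin A. The labels do not say whether the 2 libraries of a group came from separate cultures, so every p-value reflects the spread between libraries, which may be technical.

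The promoter sequences of 5 of these genes are shown first. Of them, 4 (JUN, JUND, ATF3 and IER5L) were higher in both comparisons of CPI-203 at 24 h, and EGR1 is induced through SRF. Each is the 250 bases before the annotated start in RefSeq (GRCh38.p14), read 5′ to 3′ on the gene's strand. Capitals mark every CArG box, TGACNTCA, TGACTCA or TGACG on either strand. The CArG box is the site of SRF, TGACTCA is the AP-1 site, TGACNTCA covers the CREB and ATF site and its variants, and TGACG is the first part of that site. Windows of 9 of the 10 genes were at hand, with no entry for FOSL1. ATF3 had entries for a pair of starts, and the upstream one is shown.
EGR1, chr5:138465229-138465478, plus strand: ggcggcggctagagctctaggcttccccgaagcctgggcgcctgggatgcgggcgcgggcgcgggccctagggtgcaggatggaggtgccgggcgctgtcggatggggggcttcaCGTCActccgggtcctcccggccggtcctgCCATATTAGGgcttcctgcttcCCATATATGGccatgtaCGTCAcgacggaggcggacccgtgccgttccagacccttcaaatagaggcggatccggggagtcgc
JUN, chr1:58784048-58784297, minus strand: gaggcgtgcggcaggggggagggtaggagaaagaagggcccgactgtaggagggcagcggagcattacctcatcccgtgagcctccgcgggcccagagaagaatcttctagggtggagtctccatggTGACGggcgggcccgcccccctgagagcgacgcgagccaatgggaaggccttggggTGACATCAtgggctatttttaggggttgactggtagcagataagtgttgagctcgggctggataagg
JUND, chr19:18281623-18281872, minus strand: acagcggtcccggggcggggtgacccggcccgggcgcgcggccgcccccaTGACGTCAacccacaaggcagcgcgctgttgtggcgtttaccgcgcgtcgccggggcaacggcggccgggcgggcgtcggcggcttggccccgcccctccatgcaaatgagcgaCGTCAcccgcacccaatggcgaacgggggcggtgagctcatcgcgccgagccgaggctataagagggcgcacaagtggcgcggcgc
ATF3, chr1:212565157-212565406, plus strand: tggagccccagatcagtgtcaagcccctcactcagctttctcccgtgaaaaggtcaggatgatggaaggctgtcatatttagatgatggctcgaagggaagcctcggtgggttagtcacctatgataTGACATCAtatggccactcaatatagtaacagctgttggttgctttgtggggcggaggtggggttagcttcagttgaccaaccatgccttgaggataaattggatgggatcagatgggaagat
IER5L, chr9:129178262-129178511, minus strand: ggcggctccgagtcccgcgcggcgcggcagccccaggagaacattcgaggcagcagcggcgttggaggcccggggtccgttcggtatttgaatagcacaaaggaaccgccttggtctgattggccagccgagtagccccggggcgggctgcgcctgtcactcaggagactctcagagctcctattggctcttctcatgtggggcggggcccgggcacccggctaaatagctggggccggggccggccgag

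Of these windows, that of EGR1 alone held CArG boxes. They were CCATATTAGG at -105 to -96 and CCATATATGG at -83 to -74, counted back from the start, where -1 is the last base before it. A CArG box was found in 1 of the 9 genes and in 1.16% of 35116 promoter windows of the same length. A box outside the window, in FOS or any other gene, would not be counted here. TGACNTCA was found in 3 of 9 genes, against 6.87% of all windows. It read TGACATCA at -67 to -60 in JUN and at -123 to -116 in ATF3, and TGACGTCA at -200 to -193 in JUND. The JUND match also holds TGACG on both strands. TGACG itself was found in 7 of 9 genes, against 21.2% of all windows, and TGACTCA in 0 of 9, against 4.2%. The IER5L window had neither, and held CCAAT on the other strand at -132 to -128 and at -68 to -64. CCAAT was found in 5 of 9 genes, against 32.0% of all windows, and TATAA in 5 of 9, against 13.6%. The ATF3 match for TATAA, at -230 to -226, lay in its second window alone, which is not shown. These matches describe letters in the windows and were not tied to binding. The second ATF3 window (chr1:212614768-212615017) held none of the 4 capitalised motifs. By the same annotation, FOS lies at chr14:75278828-75282230, FOSB at chr19:45467996-45475179, FOSL1 at chr11:65892049-65900545, FOSL2 at chr2:28392858-28417317 and JUNB at chr19:12791486-12793315.

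Total counts were 36268324 to 43347733 per library. Levels are given as CPM, counts scaled to a common library total with TMM factors. The defining fibroblast gene DCN had no count in any library and LUM reached at most 0.0274 CPM, although collagens and THY1 in that list of 6 were counted, so its summed level was 379 to 1040 CPM. The 3 blood cell genes summed to at most 1.27 CPM, with PTPRC at no more than 0.167 CPM. The stem cell gene POU5F1 was at 238 to 976 CPM. Cell state genes moved with the groups: 6 pluripotency genes summed to 5570 to 5990 CPM in the E7 and WNT libraries, 3350 to 3410 in E7_CPI, 2690 to 2980 in WNT_CPI and 4590 to 6270 at 48 h. The 4 trophoblast and amnion genes summed to 17.6 to 48.6 CPM in WNT_CPI and at most 3.26 elsewhere. Most of the WNT_CPI sum was CDX2, at 46.0 and 13.3 CPM (replicates 1 and 2). HAND1 was at 1.91 and 3.7 CPM there, GATA3 at 0.22 and 0.341, and TFAP2A at 0.465 and 0.292. GATA3 was highest in E7_ACT, at 1.61 CPM in replicate 1. The 3 primitive streak genes summed to 219 to 1350 CPM in WNT_ACT and 36.2 to 246 in WNT_CPI_ACT. The 3 endoderm genes summed to 39.2 to 127 CPM in WNT_ACT, 1.02 to 18.5 in WNT_CPI_ACT and at most 9.23 elsewhere, and the 3 neuroectoderm genes to 1.2 to 4.94 over all libraries. The part of these shifts in the results was not tested. In such bulk RNA, fewer cells of a type and less RNA per cell cannot be told apart.

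One library stands apart from its label. The E7_CPI replicate 1 values were not in the gene order of their own table, and in that order no rank correlation with another library exceeded 0.00657 in size. Here the column is matched to the gene order of the other table, which gives correlations of 0.954 to 0.986, the highest with E7_CPI replicate 2. In the other 7 groups the 2 libraries differed by a chi-square of 106.23 to 179.32 per degree of freedom over genes, and in E7_CPI by 3.46. The replicate number pairs the libraries of those 7 groups: deviations from the group mean correlated at 0.539 to 0.925 (Pearson's r) for each of 21 group pairs, across 12586 genes, which are not independent replicates. With E7_CPI the same values were -0.148 to -0.044, so its libraries do not carry the replicate difference. Whether both come from 1 replicate set is not given in the labels and was not tested. If they do, the n of 2, the SDs and the counts of groups that do not overlap are technical for E7_CPI. Among the genes described here, FOSL1, FOSL2, JUNB, JUND and ATF3 were higher in replicate 2 in 7 of 7 groups, FOSB in 6 of 7, and FOS was higher in replicate 1 in 6 of 7. JUN (2 of 7 higher in replicate 1), EGR1 (4 of 7) and IER5L (3 of 7) had no one direction. Results are therefore also given from a fit without E7_CPI replicate 1, and from one without it that has the replicate number as a block, called the blocked fit hereafter. The blocked fit was chosen after the data were seen, as was leaving that library out in the comparisons that do not involve E7_CPI. A block with all 16 libraries made the same calls among the 10 genes as the blocked fit, except for JUNB.

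**Figure D1:**
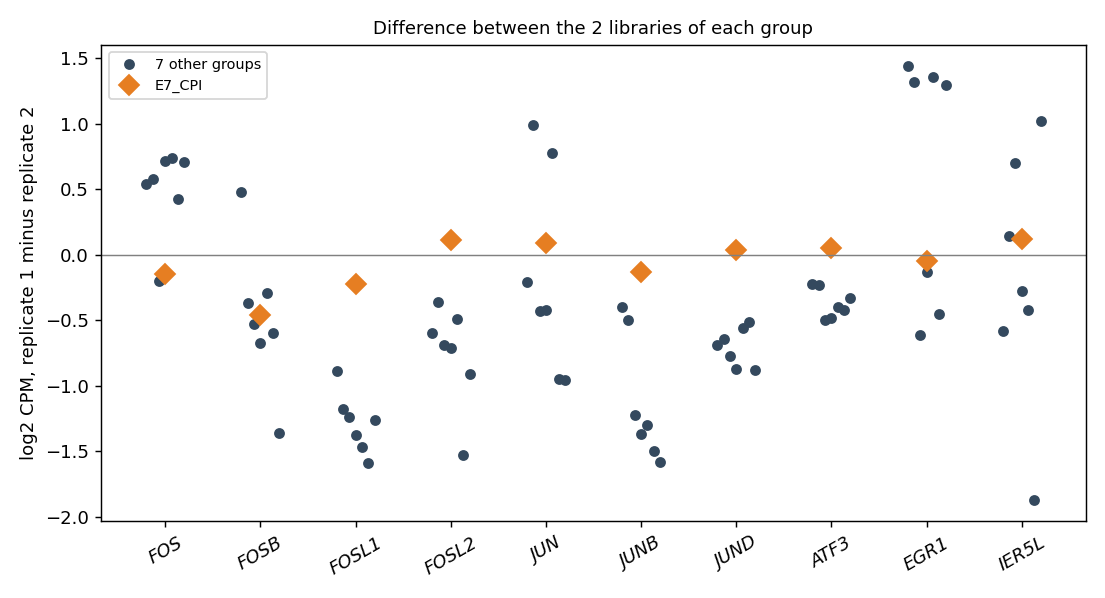
Difference in log2 CPM between replicate 1 and replicate 2 (y axis) for each of the 10 genes (x axis), with 1 point per group; E7_CPI is drawn as a diamond. The FOSL1 difference lies between -1.59 and -0.89 in the other 7 groups, below that of E7_CPI, whose diamonds sit near 0 for 9 of the genes and at -0.46 for FOSB.

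With CPI-203 alone for 24 h, 6 of the 10 genes were called higher than in E7: IER5L, JUND, JUN, FOSL2, FOS and ATF3. The difference between E7_CPI and E7 ran from 2.30-fold for FOS to 27.9-fold for IER5L. The calls of FOS, FOSL2, JUN and JUND did not hold in every fit that left out 1 library, as described below. With Wnt3a present, 4 of 10 were higher in WNT_CPI than in WNT: IER5L, JUN, ATF3 and JUND. None of the 10 was called lower in either comparison. A gene is called at a Benjamini-Hochberg adjusted p under 0.05 over all 17355 genes in edgeR's quasi-likelihood test. By that rule 15.0% of all genes tested were called higher in E7_CPI than in E7 and 17.6% lower (32.7% in either direction). In WNT_CPI against WNT 13.0% were called higher and 17.9% lower (31.0% in either direction). The median log2 fold change of the 10 genes was 1.45 without Wnt3a and 0.82 with it, against -0.05 and -0.01 for all genes. Because the 10 genes were chosen with earlier results known, their shares and medians beside those of all genes are a description and not a test.

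IER5L had the largest fold change of the 10 in both comparisons. Its level was 0.238 and 0.382 CPM in E7 (replicates 1 and 2), 9.08 and 8.37 in E7_CPI, 1.27 and 1.15 in WNT, and 44.7 and 27.6 in WNT_CPI. Every CPI-203 library lay far above every library without the inhibitor. In E7 these values rest on 10 and 16 counts. The log2 fold change was 4.80 (standard error, SE, 0.63; edgeR adjusted p = 0.000309) without Wnt3a and 4.90 (SE 0.60; adjusted p = 0.000195) with it, a 29.9-fold difference. The call held in every fit that left out 1 library.

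In the JUN family, JUN and JUND rose and JUNB did not pass the test. JUN, the founding partner of AP-1, was at 6.29 and 7.26 CPM in E7, 22.5 and 21.2 in E7_CPI, 4.71 and 2.35 in WNT and 16.6 and 22.3 in WNT_CPI. The groups with and without the inhibitor did not overlap. Its log2 fold change was 1.69 (SE 0.44; adjusted p = 0.0141) without Wnt3a and 2.45 (SE 0.46; adjusted p = 0.00235) with it. JUND, the family member usually expressed in resting cells, was at 24.6 and 39.8 CPM in E7, 116 and 113 in E7_CPI, 24.4 and 38.0 in WNT, and 74.8 and 128 in WNT_CPI. Again the lowest library with CPI-203 exceeded the highest without it. The JUND log2 fold changes were 1.84 (SE 0.43; adjusted p = 0.00809) and 1.70 (SE 0.43; adjusted p = 0.0121). JUNB, a JUN relative that is a weaker activator, was at 1.29 and 1.72 CPM in E7, 3.10 and 3.40 in E7_CPI, 1.69 and 2.41 in WNT, and 0.955 and 2.29 in WNT_CPI. Its groups were apart without Wnt3a and overlapped with it, and neither log2 fold change (1.11, SE 0.72, adjusted p = 0.27; -0.33, SE 0.72, adjusted p = 0.776) passed. Without Wnt3a JUNB passed with the block over all 16 libraries (1.17; adjusted p = 0.0206) and did not in the blocked fit, which leaves out E7_CPI replicate 1 (0.61; adjusted p = 0.214).

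ATF3, which pairs with JUN proteins and often represses, was at 13.8 and 16.1 CPM in E7, 45.0 and 43.4 in E7_CPI, 13.6 and 15.9 in WNT, and 43.3 and 61.2 in WNT_CPI. All 4 libraries without CPI-203 lay close together, well below all 4 with it. Its log2 fold change was 1.56 (SE 0.25; adjusted p = 0.000899) without Wnt3a and 1.82 (SE 0.25; adjusted p = 0.000364) with it, and no single library decided either call.

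In the FOS family the members went different ways. FOS, the member that pairs with JUN in the classic AP-1, was at 16.5 and 11.3 CPM in E7, 30.3 and 33.6 in E7_CPI, 28.7 and 19.1 in WNT, and 23.3 and 26.7 in WNT_CPI. Its log2 fold change was 1.20 (SE 0.36; adjusted p = 0.0261) without Wnt3a and 0.07 (SE 0.35; adjusted p = 0.916) with it, where both WNT_CPI libraries lay between the WNT libraries. FOSL2, a FOS relative also called FRA2, was at 4.65 and 7.09 CPM in E7, 16.8 and 15.5 in E7_CPI, 4.73 and 6.10 in WNT, and 9.77 and 15.7 in WNT_CPI. The groups did not overlap in either comparison, and the log2 fold changes were 1.46 (SE 0.50; adjusted p = 0.0448) and 1.24 (SE 0.50; adjusted p = 0.0834). In DESeq2 both FOSL2 changes passed (adjusted p = 0.0147 and 0.0433). FOSL1, or FRA1, went the other way in value: 4.53 and 8.43 CPM in E7, 2.55 and 2.98 in E7_CPI, 5.18 and 11.8 in WNT, and 1.30 and 3.14 in WNT_CPI. Its libraries with CPI-203 were all below those without. Neither log2 fold change (-1.23, SE 0.77, adjusted p = 0.255; -1.93, SE 0.79, adjusted p = 0.0876) passed, while both did in the blocked fit (-1.70, adjusted p = 0.000239; -1.95, adjusted p = 9.78e-06). DESeq2 called the FOSL1 change with Wnt3a (adjusted p = 0.0344) and not the one without it (0.204). FOSB, closest to FOS in sequence, was low everywhere, from 0.366 CPM in a WNT_CPI_ACT library to 1.56 in an E7_CPI library. Its log2 fold changes of 0.02 and -0.37 did not pass.

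EGR1 was at 25.4 and 9.31 CPM in E7, 46.1 and 47.8 in E7_CPI, 23.6 and 9.43 in WNT, and 17.3 and 26.5 in WNT_CPI. The replicate 1 library was the higher one in E7 and WNT and the lower one in WNT_CPI, so the WNT groups overlapped. Within replicate 1, EGR1 differed between WNT_CPI and WNT by -0.44 on the log2 scale, and within replicate 2 by 1.49. The pooled log2 fold changes were 1.44 (SE 0.62, adjusted p = 0.101) without Wnt3a and 0.41 (SE 0.61, adjusted p = 0.669) with it. DESeq2 called the first (adjusted p = 0.042) and not the second (0.632). In the blocked fit the first was 1.88 (adjusted p = 0.0279) and the second 0.59 (adjusted p = 0.347).

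**Figure D2:**
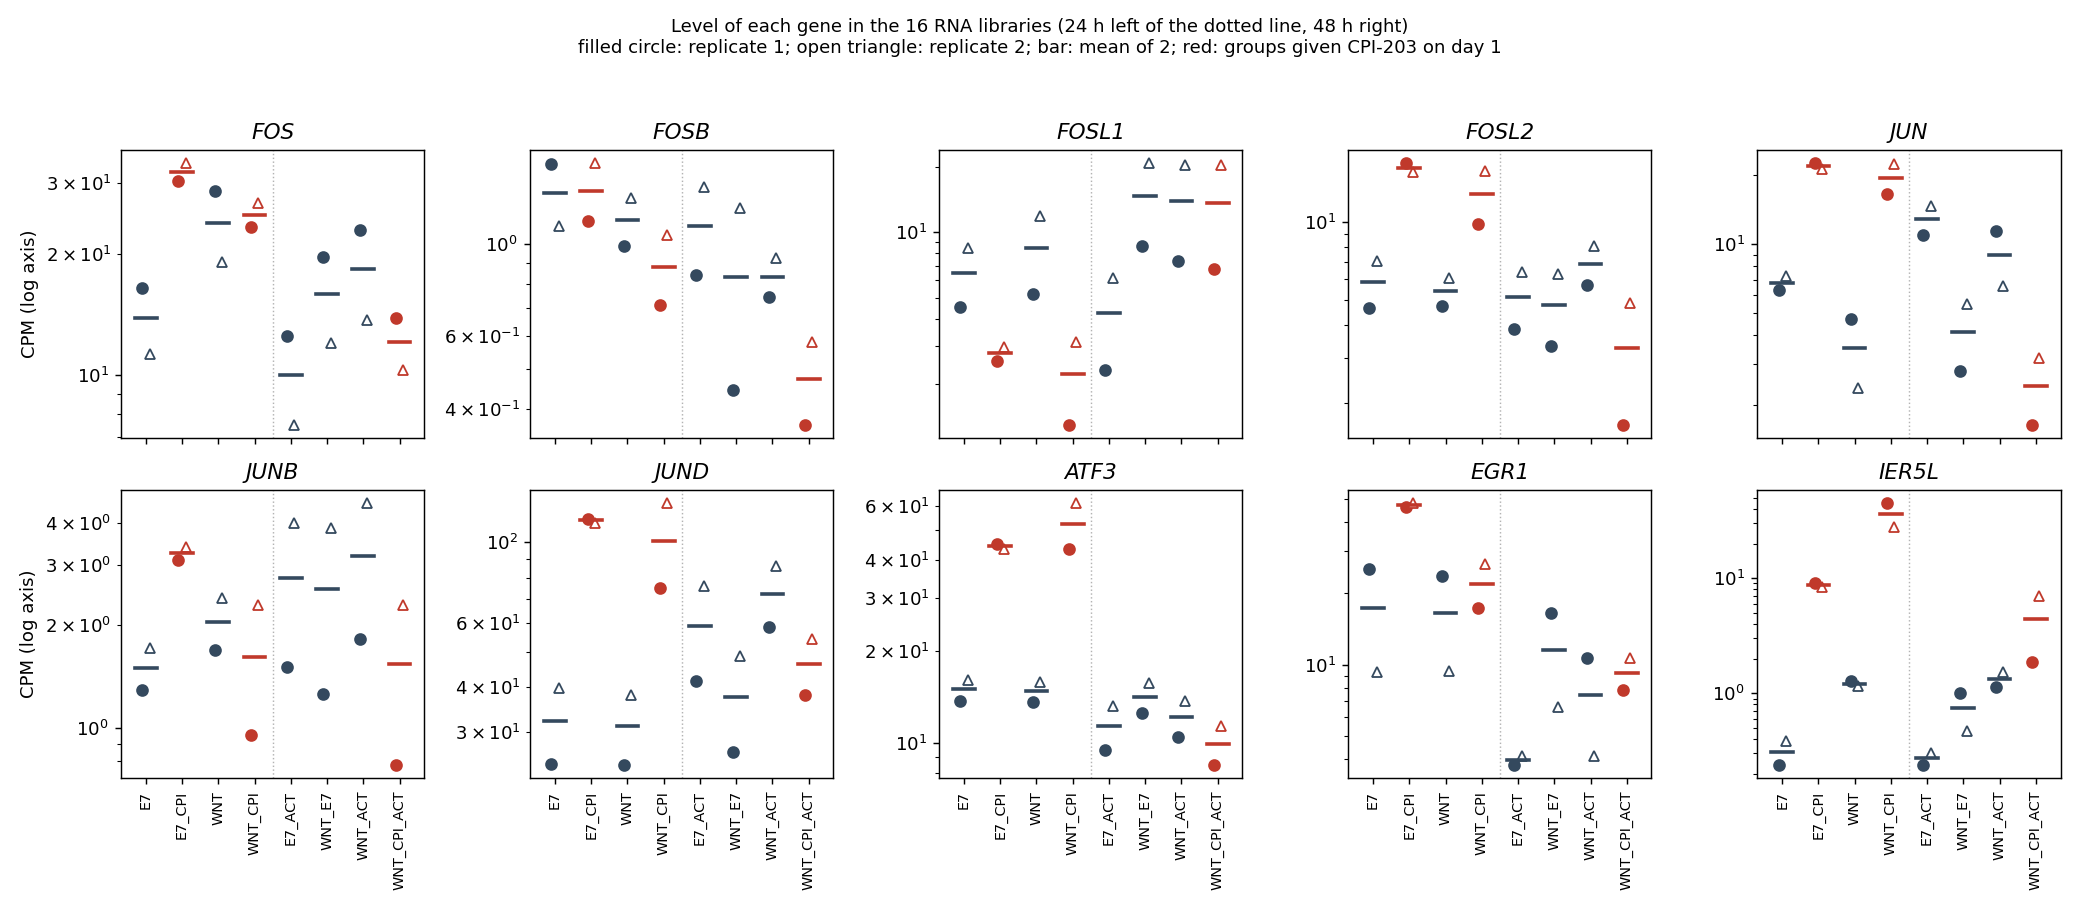
Level in CPM (log axis) of each gene in the 8 groups, with circles for replicate 1, triangles for replicate 2 and a bar for their mean; groups given CPI-203 are red, and those at 48 h stand right of the dotted line. IER5L reaches 27.6 to 44.7 CPM in WNT_CPI against 1.15 to 1.27 in WNT, and ATF3 at 24 h is high in the red groups alone.

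Several calls at 24 h were lost when a library was left out. Without E7_CPI replicate 1, 3 of the 10 genes were called higher in E7_CPI than in E7 (JUND, ATF3 and IER5L; 8.24% of all genes). The adjusted p was then 0.075 for FOS, 0.148 for FOSL2 and 0.0632 for JUN, at log2 fold changes of 1.28, 1.40 and 1.65. That fit has 1 E7_CPI library, assumed to vary like the other groups. FOS also missed the threshold without E7 replicate 2 (adjusted p = 0.152) or E7_CPI replicate 2 (0.11). FOSL2 missed it without E7 replicate 1 (0.231), E7 replicate 2 (0.0788) or E7_CPI replicate 2 (0.119), and JUN likewise (0.0918, 0.0578 and 0.0525), so that FOSL2 and JUN lost the call whichever of the 4 libraries was left out. Over the 4 fits the log2 fold change was 0.96 to 1.50 for FOS, 1.18 to 1.80 for FOSL2 and 1.59 to 1.80 for JUN. JUND missed the threshold without E7 replicate 1 (1.53; adjusted p = 0.0764). With Wnt3a, the JUND call was lost without WNT replicate 1 (0.0957) or WNT_CPI replicate 2 (0.0947). The JUND log2 fold change was 1.41 and 1.26 in those fits. FOSL2 without Wnt3a also missed the threshold when libraries were scaled by their totals alone (adjusted p = 0.0505). In the blocked fit 7 genes were called higher and 1 lower in E7_CPI (44.0% of all genes in either direction), and 5 higher and 1 lower in WNT_CPI (52.9%). The lower gene was FOSL1 in both. EGR1 joined the higher ones without Wnt3a, and FOSL2 with it (adjusted p = 0.00138).

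The libraries of the groups did not overlap for 9 of the 10 genes in E7_CPI against E7 (8 higher and FOSL1 lower; 75.6% of all genes did not overlap). In WNT_CPI against WNT it was 6 genes (5 higher and FOSL1 lower; 62.1% of all genes). Set against replicate 2 of E7 alone, the mean of both E7_CPI libraries differed by 4.34 for IER5L, 1.58 for JUN, 1.53 for JUND, 1.45 for ATF3, 1.50 for FOS and 2.33 for EGR1 on the log2 scale. The same difference was 1.18 for FOSL2, 0.90 for JUNB, 0.26 for FOSB and -1.59 for FOSL1.

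The effect of CPI-203 was also compared with and without Wnt3a, as the difference between both fold changes. None of the 10 genes passed in edgeR (0.0115% of all genes did) or in DESeq2, and FOS alone had an unadjusted p under 0.05. For FOS the difference was -1.14 (SE 0.50; adjusted p = 0.995). The values were 0.76 for JUN (SE 0.62), -1.45 for JUNB (SE 1.02), 0.26 for ATF3 (SE 0.34) and 0.10 for IER5L (SE 0.89). For JUN, JUNB, ATF3 and IER5L these standard errors leave room for differences of either sign. Without E7_CPI replicate 1 the FOS value was -1.21 (adjusted p = 1.0), and in the blocked fit -1.42 (adjusted p = 0.31). So a FOS rise was called without Wnt3a and not with it, and the difference between both effects was not called.

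**Figure D3:**
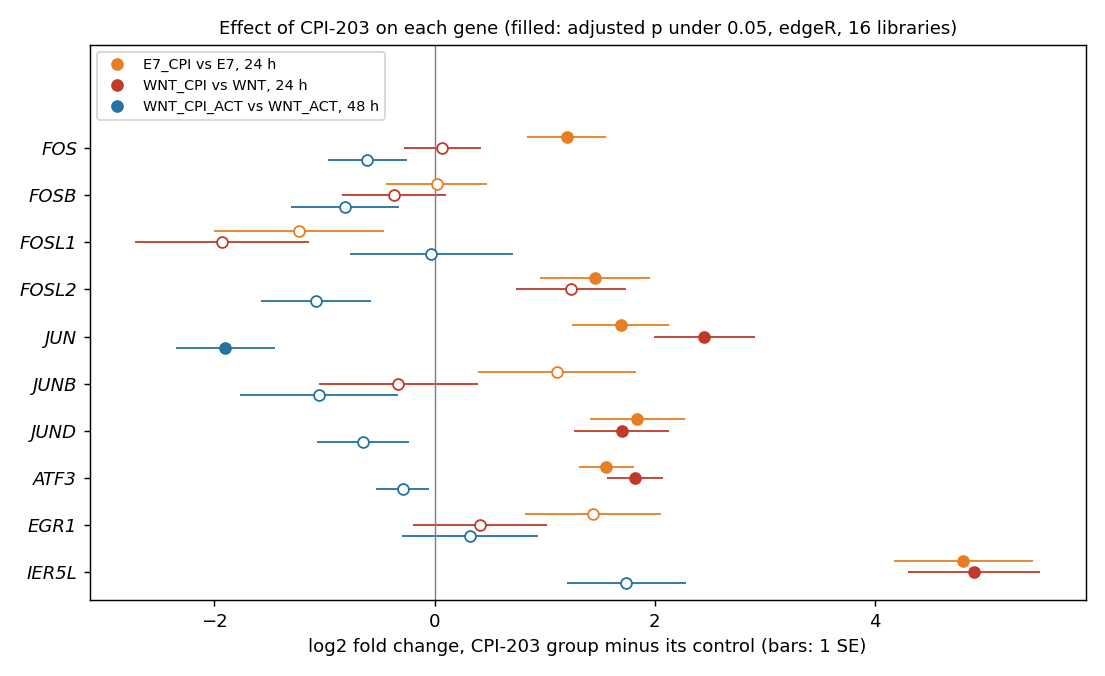
Log2 fold change (x axis, with bars of 1 SE) of each gene (y axis) in the 3 comparisons of a CPI-203 group with its control; filled points passed at an adjusted p under 0.05. IER5L stands at 4.80 and 4.90 at 24 h and at 1.74 at 48 h, and JUN is at 2.45 at 24 h with Wnt3a and at -1.90 at 48 h.

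Other genes of the pathway were counted in lists, also chosen with earlier results known. Of all genes, 15.0% were called higher and 17.6% lower without Wnt3a, and 13.0% and 17.9% with it. Of 25 other immediate early genes, 14 rose and 1 fell in E7_CPI (9 and 0 without E7_CPI replicate 1; 13 and 2 in the blocked fit). In WNT_CPI 10 rose and 3 fell (8 and 0 without E7_CPI replicate 1; 13 and 4 in the blocked fit). The list's median log2 fold change was 1.17 and 0.71. RHOB, a small GTPase gene, went from 10.1 and 8.79 CPM in E7 to 197 and 186 in E7_CPI, and from 18.3 and 15.8 in WNT to 285 and 359 in WNT_CPI. Both log2 fold changes passed (4.34, SE 0.40, adjusted p = 4.13e-05; 4.24, SE 0.40, adjusted p = 3.93e-05). GADD45B, a stress and growth arrest gene, rose by 4.14 (SE 0.63) and 3.32 (SE 0.61) on the log2 scale. IER5, the better known relative of IER5L, rose by 2.62 (SE 0.43, adjusted p = 0.00107) without Wnt3a and by 2.51 (SE 0.43, adjusted p = 0.00136) with it. NPAS4, a neuronal activity gene, fell by 3.28 (SE 1.09; adjusted p = 0.0423) with Wnt3a, at levels under 1 CPM in all 4 libraries, and its call was lost without E7_CPI replicate 1 (adjusted p = 0.0603). The immediate early list therefore held genes of both directions, as the plot of these genes shows.

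**Figure D4:**
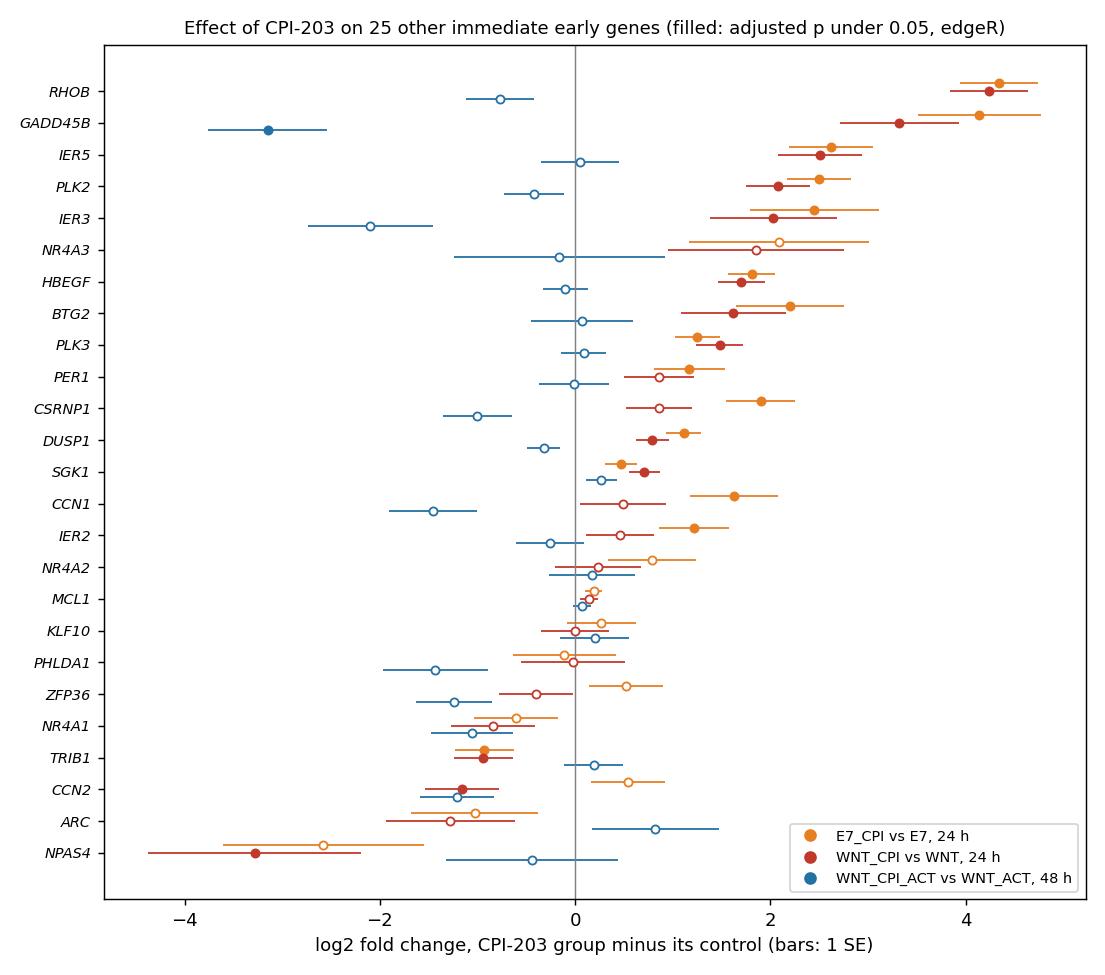
Log2 fold change (x axis, with bars of 1 SE) of 25 other immediate early genes (y axis) in the 3 comparisons of a CPI-203 group with its control, ordered by the value in WNT_CPI against WNT; filled points passed at an adjusted p under 0.05. RHOB and GADD45B lead at 24 h with 4.24 and 3.32, and at 48 h GADD45B, at -3.15, is the single filled point.

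Of 12 tested AP-1 and MAF partners, 3 rose and 2 fell in each comparison at 24 h, with list medians of -0.09 without Wnt3a and 0.07 with it (4 and 3 in the blocked fit of each comparison). Of all genes 15.0% and 17.6% were called higher and lower without Wnt3a, and 13.0% and 17.9% with it. MAFA, a large MAF factor, rose by 2.71 (SE 0.75) and 2.75 (SE 0.75) on the log2 scale, with the first call lost without E7_CPI replicate 1 (adjusted p = 0.0559). BATF2, a zipper protein that can inhibit AP-1, fell by 1.78 (SE 0.31) and 1.76 (SE 0.31). JDP2, a repressor that pairs with JUN, fell by 2.33 (SE 0.38) with Wnt3a. Without Wnt3a its log2 change was -1.58 (SE 0.37, adjusted p = 0.00768). Of 4 tested EGR and NAB genes, EGR3 alone was called in each comparison, and in the blocked fit 1 and 2 genes of this list fell. It went from 0.167 and 0.215 CPM in E7 to 1.07 and 1.39 in E7_CPI, and from 0.258 and 0.588 in WNT to 2.45 and 2.72 in WNT_CPI, log2 fold changes of 2.67 (SE 0.63) and 2.62 (SE 0.59). The list medians were -0.01 and -0.19.

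Upstream regulators were counted in the same way. The shares of all genes to set beside these counts are 15.0% higher and 17.6% lower without Wnt3a, and 13.0% and 17.9% with it. Of 8 tested SRF, TCF and CREB regulators, 1 fell without Wnt3a and 2 fell with it, with list medians of -0.21 and -0.17 (1 rose and 2 fell, and 1 rose and 3 fell, in the blocked fit). ATF1, a CREB relative, fell by 1.58 (SE 0.23) and 1.32 (SE 0.23) on the log2 scale, and SRF fell by 0.70 (SE 0.15) with Wnt3a. Of 11 tested MAP kinase genes, 2 rose and 1 fell in each comparison, with medians of 0.42 and 0.35. In the blocked fit 6 rose and 1 fell without Wnt3a, and 8 rose and 2 fell with it, where 44.0% and 52.9% of all genes were called in either direction. MAPK3, which encodes ERK1, fell by 1.32 (SE 0.29) and 1.59 (SE 0.29). MAPK8, which encodes the JUN kinase JNK1, rose by 0.57 (SE 0.14) and 0.61 (SE 0.14). RPS6KA1, a kinase below ERK, rose by 0.90 (SE 0.29) without Wnt3a, and MAP2K4, a kinase above JNK, by 0.44 (SE 0.14) with it. The last 2 calls were lost without E7_CPI replicate 1 (adjusted p = 0.134 and 0.0638).

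Of 7 tested genes that AP-1 activates in other cell types, none rose and 2 fell without Wnt3a, and 3 fell with it, with list medians of -0.47 and -0.77 (0 rose in the blocked fit, and 3 and 6 fell). Of all genes, 17.6% were called lower without Wnt3a and 17.9% with it (28.0% with it in the blocked fit). PLAUR, the urokinase receptor gene, went from 10.3 and 12.6 CPM in E7 to 3.16 and 3.29 in E7_CPI, and from 11.1 and 12.4 in WNT to 3.09 and 3.50 in WNT_CPI. The log2 change was -1.83 (SE 0.20) in both comparisons. PLAU, which encodes urokinase, fell by 1.08 (SE 0.37) without Wnt3a, with adjusted p = 0.2 without E7_CPI replicate 1. SPP1 (osteopontin) fell by 1.03 (SE 0.20) and KRT18, a keratin gene, by 0.87 (SE 0.24) with Wnt3a. Over the 6 lists, 10 genes did not pass the filter on low counts or had no count, 4 of them on chromosome 22, where 625 of 626 genes had no count in any library.

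At 48 h, after CPI-203 on day 1 and Activin A on day 2, JUN alone of the 10 genes differed between WNT_CPI_ACT and WNT_ACT, and it was lower (5.9% of all genes were called in either direction and 4.0% lower). Its level was 11.4 and 6.59 CPM in WNT_ACT and 1.63 and 3.19 in WNT_CPI_ACT. The groups did not overlap, and the log2 change was -1.90 (SE 0.45; adjusted p = 0.0368). That call was lost without E7_CPI replicate 1 (adjusted p = 0.0652), WNT_ACT replicate 1 (0.166) or 2 (0.0516), or WNT_CPI_ACT replicate 1 (0.17) or 2 (0.0656), and it held in the blocked fit (adjusted p = 0.0115). Over these fits the log2 change ran from -2.46 without WNT_CPI_ACT replicate 2 to -1.45 without WNT_ACT replicate 1.

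IER5L was the one gene of the 10 whose libraries were all higher after CPI-203 at 48 h. It was at 1.13 and 1.53 CPM in WNT_ACT and 1.88 and 6.99 in WNT_CPI_ACT, and replicate 2 held most of the difference. Its log2 fold change of 1.74 (SE 0.54) had an adjusted p of 0.0953, with 0.0229 in DESeq2 and 0.047 in the blocked fit. Without WNT_CPI_ACT replicate 2 the log2 fold change was 0.50 (adjusted p = 0.666), and without replicate 1 of that group 2.40 (0.0143). Without WNT_ACT replicate 1 or 2 it was 1.53 (0.298) or 1.97 (0.215), and without E7_CPI replicate 1 the adjusted p was 0.141. FOSL2 was at 5.71 and 8.06 CPM in WNT_ACT and 1.65 and 4.86 in WNT_CPI_ACT, and JUND at 58.5 and 86.0 and at 38.0 and 54.3. Both sets lay apart, and their log2 changes of -1.08 (SE 0.50; adjusted p = 0.283) and -0.65 (SE 0.42; adjusted p = 0.497) passed in the blocked fit (adjusted p = 0.00666 and 0.00196) and with the block over all 16 libraries (0.0217 and 0.0344). JUNB, at 1.82 and 4.56 CPM in WNT_ACT and 0.779 and 2.30 in WNT_CPI_ACT, had overlapping groups and a log2 change of -1.05 (SE 0.72; adjusted p = 0.529, 0.0324 in the blocked fit and 0.0731 with the block over all 16 libraries). The blocked fit called 1 gene higher and 4 lower of the 10, where 20.2% of all genes were called.

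The remaining 5 genes were called in no fit at 48 h with or without the block. ATF3, at 10.5 and 13.8 CPM in WNT_ACT and 8.48 and 11.4 in WNT_CPI_ACT, overlapped between the groups. The log2 changes were -0.29 for ATF3 (SE 0.24), -0.61 for FOS (SE 0.36), -0.81 for FOSB (SE 0.49), -0.03 for FOSL1 (SE 0.74) and 0.32 for EGR1 (SE 0.62). Over the 10 genes the median was -0.63, against 0.0 for all genes, and 5 of them did not overlap (1 higher and 4 lower; 37.8% of all genes). Of the 25 other immediate early genes none rose and 1 fell (0 and 8 in the blocked fit). That gene was GADD45B, at 25.1 and 14.8 CPM in WNT_ACT and 2.59 and 1.89 in WNT_CPI_ACT, a log2 change of -3.15 (SE 0.61; adjusted p = 0.0154). Of the AP-1 partners JDP2 fell by 1.54 (SE 0.36; adjusted p = 0.0344, and 0.0627 without E7_CPI replicate 1). Of the AP-1 targets MMP9, a gelatinase gene, fell by 4.15 (SE 0.47; adjusted p = 0.00147), from 6.30 and 4.69 CPM to 0.275 and 0.339. No EGR, SRF or MAP kinase list gene was called, while in the blocked fit 1 SRF list gene and 3 MAP kinase genes were lower. That fit also called 1 AP-1 partner higher and 3 lower of 12 tested, and 3 of 7 AP-1 targets lower. Of all genes, it called 8.13% higher and 12.0% lower.

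The CPI-203 effect with Wnt3a therefore differed between the 2 times for 4 of the 10 genes, tested as the 48 h fold change minus the 24 h one (5.6% of all genes were called with a lower effect at 48 h, and 13.3% in either direction). The 24 h and 48 h libraries share none, but the groups at 48 h also had Activin A and a day without the inhibitor, which cannot be told apart from time. JUN had the largest difference of the 10, -4.35 (SE 0.64; adjusted p = 0.00186), from a higher level at 24 h to a lower one at 48 h. ATF3 differed by -2.11 (SE 0.35; adjusted p = 0.00322), IER5L by -3.16 (SE 0.76; adjusted p = 0.0206) and JUND by -2.35 (SE 0.60; adjusted p = 0.0262). The JUN and ATF3 calls held in every fit without 1 library. JUND missed the threshold without WNT replicate 1 (adjusted p = 0.102), WNT_CPI replicate 2 (0.101), WNT_CPI_ACT replicate 1 (0.0868) or WNT_ACT replicate 2 (0.0792). IER5L missed it without WNT replicate 1 (0.0663) or 2 (0.0731), WNT_CPI replicate 1 (0.0699) or WNT_ACT replicate 2 (0.0595). FOSL2 was close, at -2.32 (SE 0.70; adjusted p = 0.0541), and passed without WNT_CPI_ACT replicate 2 (-3.29; adjusted p = 0.0144), in DESeq2 (0.0108) and in the blocked fit (0.000421). FOSL1 differed by 1.90 (SE 1.07; adjusted p = 0.308), which passed in the blocked fit (0.000237). The blocked fit called 6 of the 10 genes (1 higher and 5 lower; 33.3% of all genes). Of the 25 other immediate early genes, 9 had a lower effect at 48 h and none a higher one (14 and 3 in the blocked fit).

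From WNT_CPI at 24 h to WNT_CPI_ACT at 48 h, 1 of the 10 genes rose and 4 fell (26.9% of all genes were called in either direction, 14.9% higher and 12.0% lower). This comparison shares its libraries with the 2 before it, and it holds the removal of CPI-203, the addition of Activin A and a further day together. ATF3 went from 43.3 and 61.2 CPM to 8.48 and 11.4, a log2 change of -2.40 (SE 0.25; adjusted p = 0.000102), with both final libraries below all 4 of E7 and WNT. JUN went from 16.6 and 22.3 CPM to 1.63 and 3.19 (-3.01, SE 0.47; adjusted p = 0.001). IER5L went from 44.7 and 27.6 CPM to 1.88 and 6.99 (-3.03, SE 0.54; adjusted p = 0.00223), still above both WNT libraries. So ATF3 ended below the 24 h libraries without CPI-203 and IER5L above them, values that were set side by side and not tested. At 48 h without CPI-203, ATF3 was at 9.5 and 13.2 CPM in E7_ACT and 10.5 and 13.8 in WNT_ACT, which overlap WNT_CPI_ACT. In WNT_E7 it was at 12.6 and 15.8 CPM, above WNT_CPI_ACT. FOSL2 fell by 1.97 (SE 0.51; adjusted p = 0.0153), with the call lost without WNT_CPI_ACT replicate 1 (0.0872) or WNT_CPI replicate 2 (0.0981). FOSL1 rose by 2.61 (SE 0.80; adjusted p = 0.0335), from 1.30 and 3.14 CPM to 6.73 and 20.4. Its call was lost without E7_CPI replicate 1 (0.0505), WNT_CPI replicate 1 (0.187) or 2 (0.0663), or WNT_CPI_ACT replicate 2 (1.60; 0.224). FOS (-1.05, SE 0.36; adjusted p = 0.052) and JUND (-1.13, SE 0.42; adjusted p = 0.0712) passed in DESeq2 (0.0158 and 0.0386) and in the blocked fit (0.00107 and 1.13e-05), which called 1 gene higher and 6 lower (48.4% of all genes). FOS also passed with RLE scaling (0.0433). Groups did not overlap for 9 of 10 genes (57.2% of all genes), JUNB being the exception. Of the 25 other immediate early genes, 10 fell and none rose (14 and 2 in the blocked fit).

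Wnt3a alone for 24 h moved none of the 10 genes past the threshold (0.605% of all genes were called). With edgeR 1 of them, IER5L, had an unadjusted p under 0.05, and DESeq2 called 0. IER5L was higher in both WNT libraries than in both E7 libraries, a log2 fold change of 1.95 (SE 0.62; adjusted p = 0.377). FOS was also higher in both WNT libraries (0.78, SE 0.36; adjusted p = 0.833), and JUN lower in both (-0.94, SE 0.44; adjusted p = 0.874). Those were the 3 genes whose groups did not overlap (27.5% of all genes). For the other members of the set, the absolute log2 change was at most 0.44, reached by JUNB (SE 0.72).

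After Activin A, WNT_ACT and E7_ACT differ in Wnt3a on day 1, and none of the 10 genes was called (3.84% of all genes), with 3 at an unadjusted p under 0.05 and 1 in DESeq2. IER5L was again higher in both libraries, at 1.13 and 1.53 CPM in WNT_ACT against 0.24 and 0.304 in E7_ACT, where it had 10 and 12 counts. Its log2 fold change was 2.28 (SE 0.63; adjusted p = 0.0847, 0.00676 in DESeq2 and 0.0707 in the blocked fit). FOSL1 was at 7.33 and 20.4 CPM against 2.33 and 6.15 (1.71, SE 0.77; adjusted p = 0.372), and FOS at 23.0 and 13.7 against 12.5 and 7.52 (0.88, SE 0.36; adjusted p = 0.297). In each pair of the same replicate number the WNT_ACT library was the higher one, by 1.63 and 1.72 for FOSL1 and 0.88 and 0.86 for FOS on the log2 scale. Both passed in the blocked fit (adjusted p = 0.000221 and 0.0184), where 11.4% of all genes were called. The groups did not overlap for 4 genes, EGR1 being the fourth (31.6% of all genes). EGR1 was at 10.7 and 4.14 CPM in WNT_ACT and 3.78 and 4.13 in E7_ACT. Its log2 difference was 1.49 within replicate 1 and 0.0 within replicate 2.

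Activin A on day 2 was compared with medium after Wnt3a, and none of the 10 genes was called (0.882% of all genes), with 2 at an unadjusted p under 0.05 and 0 in DESeq2. JUN was at 11.4 and 6.59 CPM in WNT_ACT against 2.79 and 5.50 in WNT_E7, a log2 fold change of 1.11 (SE 0.44; adjusted p = 0.38), of which replicate 1 gave 2.00 and replicate 2 gave 0.26. JUND was at 58.5 and 86.0 CPM against 26.5 and 48.7 (0.94, SE 0.42; adjusted p = 0.483). Within replicates it was higher by 1.14 and 0.82, and it was the one gene of the 10 called in the blocked fit (0.98; adjusted p = 0.00104; 6.35% of all genes). The groups did not overlap for 3 genes: JUN, JUND and IER5L (30.2% of all genes).

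Across the 8 groups, the order of mean levels put E7_CPI or WNT_CPI first for 9 of the 10 genes, FOSL1 having them last. The share of all genes with such an order was not counted. For FOSB the first place was narrow, 1.34 CPM in E7_CPI against 1.32 in E7, and WNT_CPI had rank 5. JUNB was alike, at 3.25 CPM in E7_CPI against 3.19 in WNT_ACT, with WNT_CPI at rank 6. For IER5L the order was WNT_CPI at 36.2 ± 12.1 CPM (SD, n = 2), E7_CPI at 8.73 ± 0.508, WNT_CPI_ACT at 4.43 ± 3.61, WNT_ACT at 1.33 ± 0.284, WNT at 1.21 ± 0.0837, WNT_E7 at 0.743 ± 0.382, E7 at 0.31 ± 0.102 and E7_ACT at 0.272 ± 0.0448. The neighbouring pairs overlapped, WNT_ACT with WNT and E7 with E7_ACT. For ATF3, E7_CPI and WNT_CPI overlapped each other and stood apart from the next group, and all later neighbours overlapped. JUN had the same first pair, a gap to E7_ACT at 12.9 CPM and its lowest mean, 2.41 CPM, in WNT_CPI_ACT. For FOSB, JUNB and JUND no neighbouring groups were apart, nor were they for FOSL1, which ran from 14.7 CPM in WNT_E7 to 2.22 in WNT_CPI. For FOS E7_CPI alone stood apart from its neighbour, at 32.0 CPM against 25.0 in WNT_CPI. EGR1 had 47.0 CPM in E7_CPI, apart from 21.9 in WNT_CPI. It had 3.95 in E7_ACT, barely apart from 7.42 in WNT_ACT, with the nearest libraries at 4.13 and 4.14 CPM. FOSL2 had its E7_CPI and WNT_CPI means, 16.1 and 12.8 CPM, apart from all others.

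The genes most like IER5L, EGR1 and JUN were sought, since these 3 had the widest range of group means. Likeness was Pearson's r of log2 CPM over the 16 libraries, which share the treatments and replicate sets, and it is given as a description. IER5L was closest to RAB11FIP3 (r = 0.969), FZD1 (0.963) and P2RX4 (0.962). FZD1, a Wnt receptor gene, had group means of 1.65 CPM in E7, 10.9 in E7_CPI, 4.36 in WNT and 22.4 in WNT_CPI, each of the last 3 above the first. EGR1 was closest to LRIG1 (0.943), SH3GL3 (0.892) and NRCAM (0.879). JUN was closest to CBLN1 (0.916), C12orf75 (0.908) and FMN2 (0.907). CBLN1 had group means of 4.83 CPM in E7, 11.4 in E7_CPI, 2.75 in WNT, 16.5 in WNT_CPI and 1.33 in WNT_CPI_ACT. Among the 10 genes themselves r was highest between FOSL2 and ATF3 (0.88) and between FOS and EGR1 (0.83), and it was -0.64 between FOSL1 and JUN.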

How the data were processed

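RNA was measured in 16 libraries (8 groups of 2). The authors deposited raw counts per gene in 1 table per replicate number. Bowtie2, deepTools, DESeq2, featureCounts and MACS2 are named in the submitters' processing notes. The aligner and build behind the RNA counts are not given in the sources used here. Strand is not stated either, so reads of antisense genes could be included. A deposited list of positions in other units, base pairs per the file headers, for 14 ATAC libraries was not analysed here.

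The deposited counts went into edgeR 4.0.16 (R 4.3.3, limma 3.58.1). Genes with low counts were removed with filterByExpr, libraries were scaled with TMM (factors from 0.948 to 1.049), and 1 model of 8 groups was tested with the 2-sided quasi-likelihood F-test on 8 residual degrees of freedom. Benjamini-Hochberg adjustment ran over the 17355 genes left. For r and within-replicate differences, log2 CPM had a prior count of 2. Symbols of 27322 IDs came from RefSeq. The main model had no term for the replicate number, so its calls are unpaired. Replicate numbers paired the libraries of all groups except E7_CPI, by their correlated deviations. Common biological variation was 0.271 in the main model, and 0.147 with the replicate block, which also numbers the E7_CPI libraries. Alternatives were the replicate block, DESeq2 1.42.0, RLE factors, totals alone, no filter and each library left out. The code was tested on simulated data.

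The 10 genes and all lists were chosen with earlier results of these data known. All 10 are named. Of other genes, up to 3 called per list with the largest change are named in the 3 CPI-203 comparisons, and the 3 most alike of the 3 most variable members. A gene of the AP-1 partner list that this rule names is not reported here.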

Additional observations from a re-analysis of the deposited data

Results flagged for a closer look

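For 4 genes the effect of CPI-203 differed between 24 h and 48 h by a test of the difference itself (edgeR's quasi-likelihood test, adjusted over all genes). On the log2 scale, as the 48 h effect minus the 24 h effect, the difference was -4.35 for JUN, -2.35 for JUND, -2.11 for ATF3 and -3.16 for IER5L. In both replicate sets the effect was lower at 48 h for each of the 4. Activin A, the day without CPI-203 and time cannot be told apart in these groups.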

How the results depend on the processing

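The comparisons are given in this order: WNT with E7, E7_CPI with E7, WNT_CPI with WNT, the CPI-203 effect with against without Wnt3a, WNT_CPI_ACT with WNT_ACT, the effect at 48 h against 24 h, WNT_CPI_ACT with WNT_CPI, WNT_ACT with WNT_E7, and WNT_ACT with E7_ACT. All genes called numbered 105, 5671, 5374, 2, 1024, 2313, 4667, 153 and 667. With the replicate block they were 299, 8816, 8227, 22, 2619, 4661, 7414, 773 and 1509, and with the block and no E7_CPI replicate 1 414, 7834, 9417, 7, 3590, 5923, 8608, 1130 and 2024. DESeq2 called 306 for WNT with E7, 37 for the difference by Wnt3a, 1787 for WNT_CPI_ACT with WNT_ACT, 681 for WNT_ACT with WNT_E7 and 1118 for WNT_ACT with E7_ACT. Leaving out 1 library gave 16 to 76, 3121 to 4094, 3544 to 4722, 0 to 2, 308 to 767, 1415 to 1990, 2897 to 4063, 0 to 237 and 83 to 557. Of the 10 genes, E7_CPI with E7 had 6 called, 9 with the block, and 8 with the block and no E7_CPI replicate 1. WNT_CPI_ACT with WNT_ACT had 1 called, 4 with the block, 5 with the block and no E7_CPI replicate 1, 2 in DESeq2 and 0 to 1 with a library left out. WNT_ACT with WNT_E7 had 0, and 1 with either block. WNT_ACT with E7_ACT had 0, 2 with either block and 1 in DESeq2. With a library left out, E7_CPI with E7 had 3 in every fit, WNT_CPI with WNT 3 to 4, the effect at 48 h against 24 h 2 to 5, and WNT_CPI_ACT with WNT_CPI 3 to 4. Signs turned for changes that had not passed. With a library left out, FOSB in E7_CPI ran from -0.23 to 0.29 (-0.04 with either block, -0.07 by totals alone). In WNT_CPI, FOS ran from -0.20 to 0.38, JUNB from -1.10 to 0.16 and EGR1 from -0.10 to 1.21, and in the difference by Wnt3a IER5L ran from -0.29 to 0.40. In WNT_CPI_ACT with WNT_ACT, FOSL1 ran from -1.04 to 0.89 and EGR1 from -0.21 to 1.16. At 48 h against 24 h, JUNB ran from -1.69 to 0.09 and EGR1 from -0.89 to 0.75 (0.01 by totals alone), and in WNT_CPI_ACT with WNT_CPI, JUNB ran from -1.05 to 0.69 (0.01 by totals alone). The cause was not tested. Dropping the filter on low counts changed none of 62 named results, and RLE factors changed 1. With totals alone 3 turned sign and 1 lost its call. DESeq2 added a call to 8, and the replicate block added a call to 15 and turned the sign of 1. In E7_CPI with E7 the median over all genes was -0.05, and -0.14 with totals alone. IER5L in E7 and E7_ACT, at 10 to 16 counts, is limited by depth.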
